A study of Mus musculus with 2 samples.

Results

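The genes described are the glucose transporter Slc2a3 and 9 enzymes of glycolysis and lactate formation, Hk2, Pfkl, Aldoa, Gapdh, Pgk1, Pgam1, Eno1, Pkm and Ldha. They were taken by name from the table of both libraries, which held all 10 among its 25943 genes. Glycolysis splits glucose into pyruvate in the cytosol and yields ATP without oxygen. Lactate dehydrogenase turns the pyruvate into lactate and regenerates the NAD+ that the pathway consumes. Neutrophils hold few mitochondria and are known to draw most of their ATP from this pathway, so its transporter, its enzymes and its lactate exporter matter for their movement and their oxidative burst.

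Single bone marrow cells came from wild-type (WT) male mice aged 8 to 10 weeks. One library was from control mice and the other from mice with MCAO, occlusion of the middle cerebral artery, a stroke model in which that brain artery is blocked. The marrow was taken from leg bones, red cells were lysed and all remaining cells were loaded on the BD Rhapsody microwell system, without a sort. How many animals went into each library, how long after occlusion they were taken and how controls were handled is not stated in the labels.

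The control library held 5212 cells and 25886279 unique molecular identifiers (UMIs, counted mRNA molecules), and the MCAO library 5398 cells and 35401492 UMIs. Median depth was 3344 and 4952 UMIs per cell. With 1 library per condition, differences have no replicate check and no p-value, and the 95% intervals in brackets cover counting error only. Cell classes were rebuilt from clusters and carry the ending "-like". The granulocyte series ran from progenitor-like cells (64 control and 75 MCAO cells) through promyelocyte-like (76 and 185), pre-neutrophil-like (248 and 392) and immature-neutrophil-like (615 and 852) to mature-neutrophil-like cells (1559 and 1496). The 4 clusters that make up the mature class each detected 9 or 10 of its 10 markers, which also named them. Of the 4, cluster 4 had the lowest marker score (1.29). Mmp8, a marker of the immature class, was among the leading genes of clusters 4 and 8. In a finer clustering (resolution 2), a cluster led by Gpr27, Mmp8 and Thbs1 was named immature-neutrophil-like. Free RNA was present in both libraries. The granule genes Camp, Ngp, Ltf and Lcn2, made by neutrophil precursors, stood in B-cell-like cells at a median of 22.04% (control) and 20.2% (MCAO) of their library-wide level. The level of a gene is its summed UMIs per 10000 UMIs of a class. In such a sum, fewer cells with a gene's RNA and less of it per cell cannot be told apart.

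On the GRCm38 annotation, all 10 are protein-coding. Slc2a3 lies at chr6:122727809-122801640 on the minus strand, Hk2 at chr6:82725025-82774454 (minus), Pfkl at chr10:77986947-78010083 (minus) and Gapdh at chr6:125161715-125166467 (minus). Aldoa has 2 gene entries there, the first at chr7:126795234-126800751 (minus). Pgk1 lies at chrX:106187100-106203699, Pgam1 at chr19:41911923-41918660, Eno1 at chr4:150236721-150248879, Pkm at chr9:59656368-59679375 and Ldha at chr7:46841475-46855627, all on the plus strand. Slc2a3 overlaps Gm4482 and Pkm overlaps Gm49759 on the same strand, so reads in the shared stretches could have been split between them.

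Many glycolytic genes are known targets of hypoxia-inducible factor (HIF), whose core motif reads ACGTG or GCGTG. The 250 bases before a RefSeq transcript start of 4 members are printed because these 4 had MCAO over control ratios of at least 1.2 with intervals above 1 in mature-neutrophil-like cells. They are from RefSeq on GRCm38.p6, 5′ to 3′ on the gene's strand, and capitals mark each core match on either strand. Pfkl is chr10:78009808-78010057 (minus), Pgk1 is chrX:106186850-106187099, Eno1 is chr4:150236458-150236707 and Ldha is chr7:46845554-46845803, all 3 of these plus. The Pfkl and Ldha windows lie inside the gene bounds given above, which come from GENCODE and begin farther upstream. Where RefSeq gives several starts, the window listed first is shown.
Pfkl: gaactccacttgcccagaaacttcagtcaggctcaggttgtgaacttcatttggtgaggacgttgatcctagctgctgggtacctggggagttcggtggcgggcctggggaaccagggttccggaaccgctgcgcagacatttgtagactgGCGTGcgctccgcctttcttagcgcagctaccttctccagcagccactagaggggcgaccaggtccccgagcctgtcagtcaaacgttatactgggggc
Pgk1: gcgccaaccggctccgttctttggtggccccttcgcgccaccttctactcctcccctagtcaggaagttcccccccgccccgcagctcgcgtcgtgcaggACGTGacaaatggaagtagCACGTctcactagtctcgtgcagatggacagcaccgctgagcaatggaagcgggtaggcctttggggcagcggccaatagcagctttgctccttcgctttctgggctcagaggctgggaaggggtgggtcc
Eno1: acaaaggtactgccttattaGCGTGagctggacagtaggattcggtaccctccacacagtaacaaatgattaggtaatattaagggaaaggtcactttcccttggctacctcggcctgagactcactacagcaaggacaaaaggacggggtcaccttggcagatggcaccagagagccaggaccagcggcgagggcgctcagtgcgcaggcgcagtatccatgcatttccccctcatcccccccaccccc
Ldha: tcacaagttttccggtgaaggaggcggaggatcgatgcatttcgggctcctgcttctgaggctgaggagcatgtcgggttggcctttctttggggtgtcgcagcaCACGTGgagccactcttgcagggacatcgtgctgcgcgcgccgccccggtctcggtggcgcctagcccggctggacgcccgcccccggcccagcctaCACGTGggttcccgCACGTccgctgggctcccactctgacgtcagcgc
The Ldha window held 5 matches, of which 4 came from CACGTG, a palindrome that is read once on each strand. The Pgk1 window held 2, and the Pfkl and Eno1 windows held 1 each. The second window of Ldha held 1, and the other windows of Eno1 held 2 each. The promoter table had 15 windows for 9 members, and 13 windows, with at least 1 for each of the 9, held ACGTG or GCGTG. Of 32851 windows of that length for all genes, 38.6% held either motif, with ACGTG in 16.6% and GCGTG in 28.2%. These shares are per window, while the count of members pools all windows of a gene. Some windows of Aldoa and of Eno1 overlap and share the same matches. Slc2a3 has no entry in that table. A match describes letters only, and no binding was measured.

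The transcript of the glucose transporter stood out along the granulocyte series, and glucose uptake was not measured. The level of Slc2a3, the high-affinity transporter GLUT3, was 0.5925 and 0.570 in progenitor-like cells (control and MCAO), 0.318 and 0.599 in promyelocyte-like, 1.77 and 1.65 in pre-neutrophil-like, 4.23 and 3.92 in immature-neutrophil-like and 7.56 and 7.22 in mature-neutrophil-like cells. Each step from promyelocyte-like cells on was higher than the one before in both libraries. From promyelocyte-like to mature-neutrophil-like cells the level was 23.75-fold higher [17.4 to 33.3] among control cells and 12.1-fold higher [10.4 to 14.01] among MCAO cells. Slc2a3 was the 1 member of 10 that was at least 2-fold higher in both libraries, where 12.4% of 9908 ranked genes were. A gene was ranked when its UMIs in the classes compared came to 50 or more and at least 2% of a class's cells held it in 1 library. When every cell was thinned to 1000 UMIs, 46.7% of control and 45.55% of MCAO mature-neutrophil-like cells held a Slc2a3 UMI, against 6.35% and 6.92% of B-cell-like cells. The unthinned shares were 72.0% and 77.7% against 12.7% and 14.8%, at median depths of 2633 and 3329.5 UMIs in mature-neutrophil-like and 1994 and 2156 UMIs in B-cell-like cells. The B-cell-like level of Slc2a3, 34.0% and 39.3% of its library-wide level, was thus above that of the granule genes. The promyelocyte-like level, 0.318 and 0.599, rests on 40 and 192 UMIs and stood beside library-wide levels of 2.39 and 2.20. Median depth in promyelocyte-like cells was 15865.5 and 16377 UMIs. The parts of free RNA and of depth in the stage folds were not tested.

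**Figure D1:**
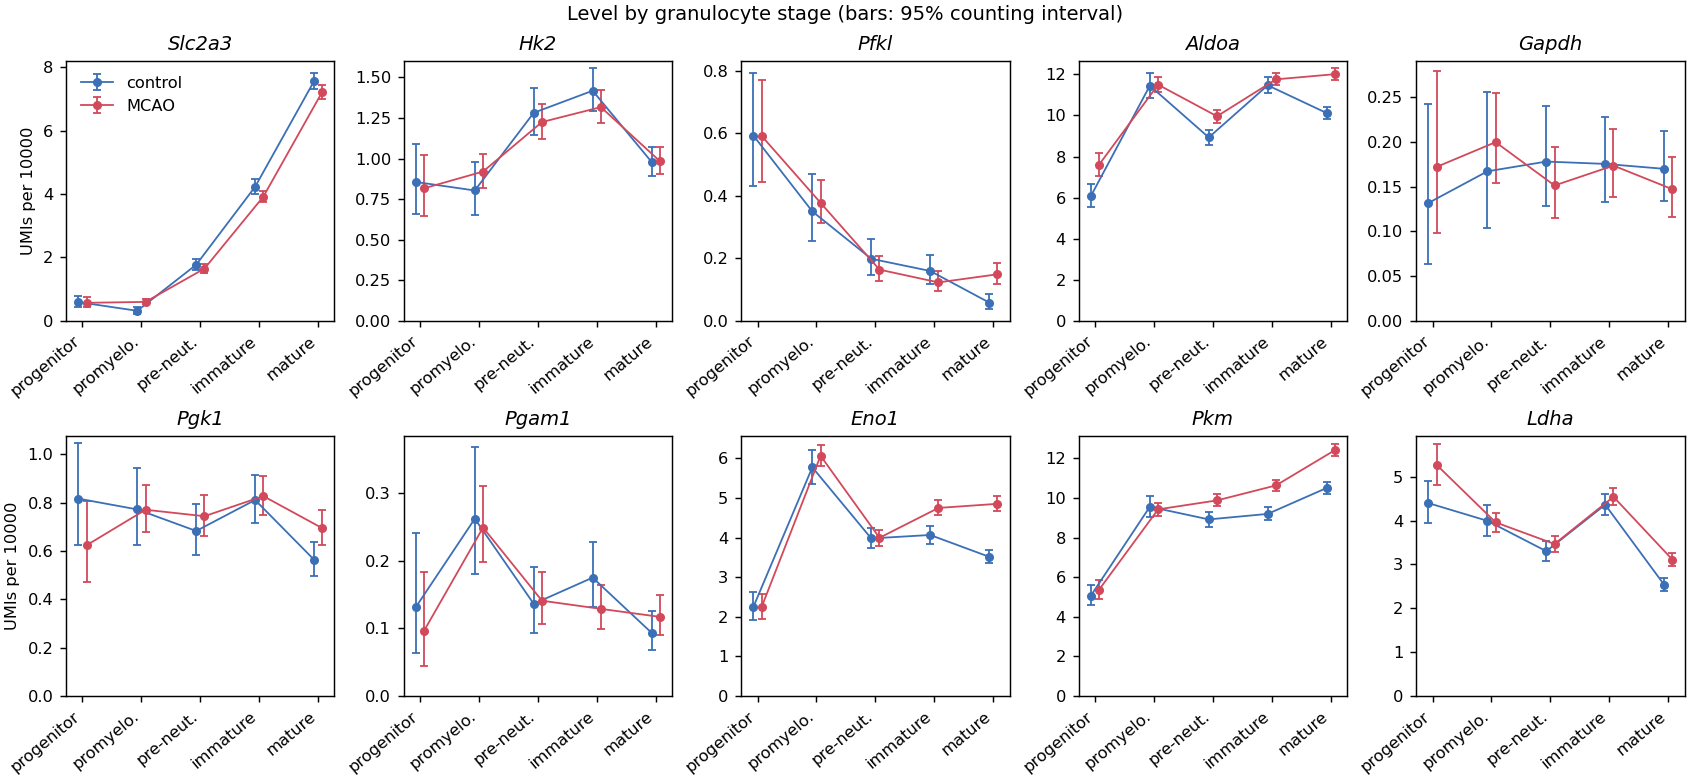
Level of each of the 10 genes (UMIs per 10000, linear axes from 0) in 5 granulocyte stages, control in blue and MCAO in red, with 95% counting intervals. Slc2a3 goes from 0.318 and 0.599 in promyelocyte-like to 7.56 and 7.22 in mature-neutrophil-like cells. From the first to the second of these stages Pfkl and Pgam1 go down. Aldoa and Pkm are lowest in progenitor-like cells, at 6.08 and 7.61 and at 5.07 and 5.375. From promyelocyte-like cells on, Aldoa stays between 8.93 and 12.0 and Pkm between 8.91 and 12.4.

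The 2 steps that commit glucose to the pathway differed from the transporter. The level of Hk2, a hexokinase that traps glucose as glucose 6-phosphate, was 0.803 and 0.920 in promyelocyte-like cells, 1.42 and 1.32 in immature-neutrophil-like cells and 0.980 and 0.984 in mature-neutrophil-like cells. It was therefore highest in the middle of the series in both libraries. Pfkl, the liver-type phosphofructokinase of the main control step, was 0.350 and 0.377 in promyelocyte-like cells and 0.0588 and 0.149 in mature-neutrophil-like cells. That is 5.955-fold lower [3.61 to 10.0] among control cells and 2.535-fold lower [1.90 to 3.41] among MCAO cells.

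Pfkl and Pgam1, the phosphoglycerate mutase, were the 2 of 10 members at least 2-fold lower in mature-neutrophil-like cells in both libraries, where 47.2% of ranked genes were. Pgam1 went from 0.2625 and 0.2495 to 0.0936 and 0.117, which is 2.80-fold lower [1.73 to 4.52] and 2.13-fold lower [1.51 to 3.01]. Both calls rest on few molecules, with 27 Pfkl and 43 Pgam1 UMIs in control mature-neutrophil-like cells. In cells thinned to 1000 UMIs, neither passed 2-fold in both libraries. Over the 10 members the median log2 ratio of mature-neutrophil-like to promyelocyte-like cells was -0.31 (control) and -0.23 (MCAO), against -0.93 and -0.95 over all ranked genes.

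Aldoa, the aldolase that cleaves fructose 1,6-bisphosphate, was 11.45 and 11.5 in promyelocyte-like cells and 10.1 and 12.0 in mature-neutrophil-like cells. Pkm, the pyruvate kinase of the last step, was 9.55 and 9.42 in promyelocyte-like and 10.5 and 12.4 in mature-neutrophil-like cells. The counts are per gene, so its splice forms are not separated. Together these 2 genes took 57.1 to 63.2% of the members' UMIs from the promyelocyte-like stage to the mature stage. Eno1, the enolase, was highest in promyelocyte-like cells at 5.775 and 6.07 and stood at 3.52 and 4.85 in mature-neutrophil-like cells. Ldha, the lactate dehydrogenase subunit, had its granulocyte maximum in progenitor-like cells at 4.40 and 5.27 and was 2.54 and 3.11 in mature-neutrophil-like cells. Pgk1, the first ATP-yielding enzyme, was between 0.564 and 0.827 at every stage from promyelocyte-like on.

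The MCAO over control comparison in mature-neutrophil-like cells gave higher values for most enzymes and not for the transporter. At 1.2-fold, 5 of 10 members were higher (Pfkl, Pgk1, Pgam1, Eno1 and Ldha), where 17.1% of 7098 ranked genes were, and 0 were lower, where 20.3% were. In cells with at least 2000 UMIs 3 were higher (Pfkl, Pgam1 and Eno1), with Ldha at 1.18-fold and Pgk1 just under the threshold, and Gapdh was lower. The share of all ranked genes in those cells is not given, so that count, unlike the one in all cells, has no background. Eno1 was 3.52 and 4.85, a 1.38-fold ratio [1.30 to 1.47] on 1615 and 2608 UMIs. Ldha was 2.54 and 3.11, 1.23-fold [1.14 to 1.32]. Pgk1 was 0.564 and 0.694, 1.23-fold [1.05 to 1.45]. Pfkl was 0.0588 and 0.149, 2.53-fold [1.62 to 4.08], on 27 and 80 UMIs. In cells thinned to 1000 UMIs, 23.99% and 35.0% held an Eno1 UMI (48.4% and 69.5% unthinned), against 13.3% and 14.03% of B-cell-like cells. A Pfkl UMI was held by 0.661% and 1.54% (1.54% and 4.21% unthinned), against 3.56% and 1.82% of B-cell-like cells, so the Pfkl ratio rests on few cells. The interval of Pgam1 included 1, at 1.25-fold [0.8365 to 1.89].

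Aldoa and Pkm lay just under the threshold, at 1.19-fold [1.14 to 1.23] and 1.18-fold [1.14 to 1.23], from levels of 10.1 to 12.0 and 10.5 to 12.4. Hk2 was level between the libraries at 1.005-fold [0.8845 to 1.14]. Slc2a3 was 0.956 [0.913 to 1.001] and Gapdh 0.866 [0.625 to 1.199] times the control level. The median log2 ratio was 0.26 over the members and -0.01 over all ranked genes. The summed level of the 10 members was 36.1 for control and 41.7 for MCAO cells, a ratio of 1.155. That ratio was 1.225 in macrophage-like, 1.277 in pro-B-or-pre-B-like, 1.018 in promyelocyte-like and 1.003 in B-cell-like cells. Aldoa was above 1 in every class and Eno1 in all but progenitor-like cells, though many of the intervals include 1. These rises were thus not particular to mature-neutrophil-like cells. Over whole libraries Aldoa was 7.72 and 9.15, Eno1 3.10 and 3.97, Slc2a3 2.39 and 2.20 and Pfkl 0.276 and 0.262. Mature-neutrophil-like cells were deeper in the MCAO library. Within bands of depth the summed levels of control and MCAO cells were 29.75 and 34.1 under 2000 UMIs, 37.1 and 41.9 from 2000 to 4000, and 37.45 and 42.6 over 4000. Pgk1 was 0.354 and 0.344, 0.544 and 0.567, and 0.675 and 0.844 in the same bands, so its difference was small under 4000 UMIs. The part of depth in the ratios was not tested. The 4 haemoglobin genes, a sign of free red cell RNA, summed to 9.17 (control) and 16.6 (MCAO) in this class and all 4 were higher. Their part in these ratios was not tested.

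The mature class is made of 4 clusters whose shares differed between the libraries. Cluster 1, led by interferon-induced Ifit genes, made up 52.9% (control) and 22.4% (MCAO) of the class. Cluster 4, led by Thbs1 and Mmp8, made up 29.7% and 14.4%. Cluster 6, led by the cytokine gene Il1b, made up 13.3% and 28.8%, and cluster 8, led by stefin A genes, 4.11% and 34.4%. Within clusters, 4 members were above 1 in all 4 (Pfkl, Aldoa, Eno1 and Pkm), where 9.21% of ranked genes were. Pfkl is there on few UMIs: 1.83-fold [0.914 to 3.65] in cluster 1, 4.24-fold [1.53 to 13.5] in cluster 4, 0 against 15 UMIs in cluster 6 and 1 against 33 in cluster 8 (2.80-fold [0.469 to 114]). Eno1 was 1.45-fold [1.285 to 1.635] in cluster 1, 1.13-fold [1.01 to 1.265] in cluster 4, 1.73-fold [1.38 to 2.18] in cluster 6 and 1.42-fold [1.11 to 1.84] in cluster 8. Pkm was 1.15-, 1.09-, 1.44- and 1.57-fold in the same order, and each interval lay above 1. Aldoa was 1.23-, 1.05-, 1.41- and 1.24-fold, with the interval in cluster 4 reaching down to 0.983.

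Other members depended on the cluster. Ldha was 1.51-fold [1.29 to 1.77] in cluster 1 and 1.73-fold [1.27 to 2.405] in cluster 6 but 0.941 [0.725 to 1.24] in cluster 8, which held 64 control cells. Slc2a3 was 0.877 [0.804 to 0.956] in cluster 1 and 1.28-fold [1.10 to 1.502] in cluster 6. Hk2 was 1.52-fold [1.18 to 1.94] in cluster 1 and 0.951 [0.765 to 1.18] in cluster 4. At 1.2-fold, 6 members were higher in cluster 1 (24.1% of ranked genes), 2 in cluster 4 (22.3%), 8 in cluster 6 (29.1%) and 5 in cluster 8 (32.0%). In cluster 6 the count includes Pfkl, set against the floor of 3 UMIs because its control cells held 0. Lower were 0 members in cluster 1 (30.6% of ranked genes), Gapdh in cluster 4 (29.8%), 0 in cluster 6 (39.9%) and Gapdh and Pgam1 in cluster 8 (31.9%). MCAO cells were deeper in every one of these clusters, with medians of 2335 and 2853 UMIs in cluster 1 and 1519 and 2351 in cluster 6. The part of depth within clusters was not tested.

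**Figure D2:**
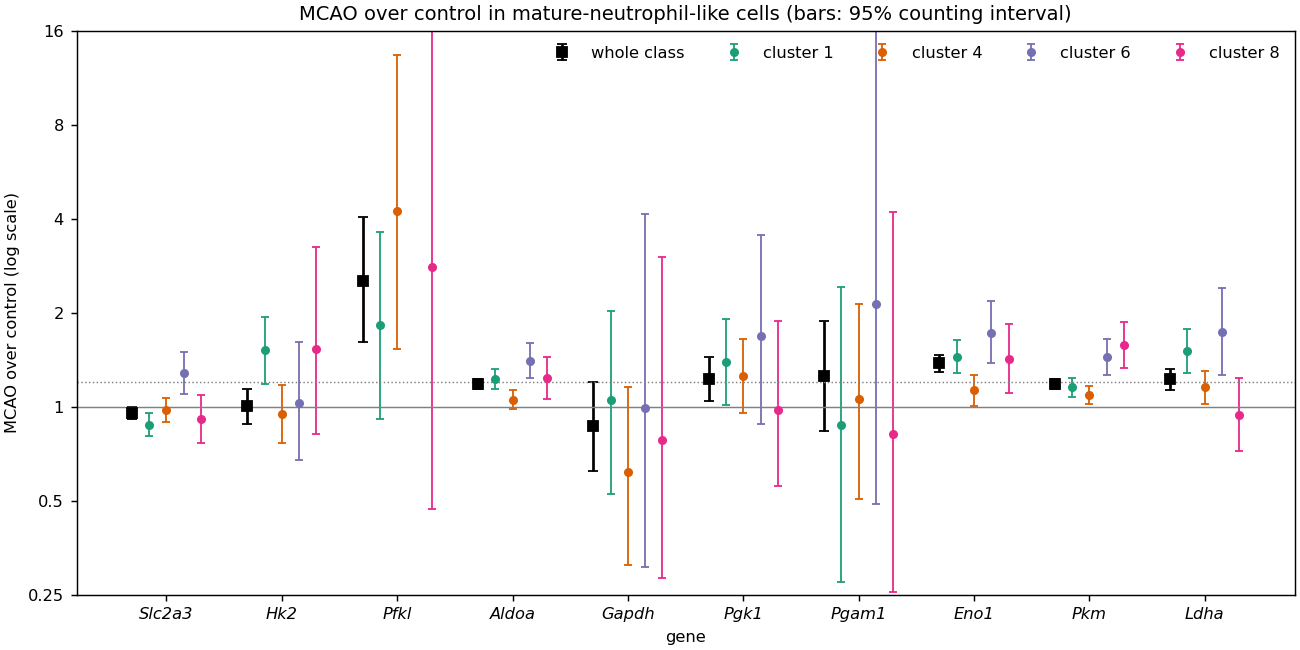
Ratio of the MCAO to the control level (log scale) in mature-neutrophil-like cells for each gene, as black squares for the whole class and coloured circles for its clusters 1, 4, 6 and 8, with 95% counting intervals. Solid and dotted lines mark 1 and 1.2, intervals that run past 16 are cut at the edge, and Pfkl has no point in cluster 6 because its control cells held 0 UMIs of it. Eno1 and Pkm lie above 1 in the whole class and in all 4 clusters.

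In immature-neutrophil-like cells, Eno1 was 4.07 and 4.75, 1.17-fold [1.09 to 1.25], and Pkm was 9.19 and 10.6, 1.16-fold [1.105 to 1.21]. There 2 of 10 members were at least 1.2-fold lower, where 19.3% of ranked genes were. They were Pfkl at 0.771 [0.522 to 1.14] and Pgam1 at 0.736 [0.506 to 1.07], whose intervals include 1. In promyelocyte-like cells Slc2a3 was 1.88-fold higher [1.33 to 2.72], on 40 and 192 UMIs. The thinned shares of promyelocyte-like cells with a Slc2a3 UMI, 5.48% [1.51 to 13.4] and 8.11% [4.61 to 13.02], overlapped and also overlapped those of B-cell-like cells.

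Outside the granulocytes, the 3 members higher in monocyte-like cells were Pgam1 at 1.48-fold [1.10 to 2.02], Pgk1 at 1.37-fold [1.17 to 1.61] and Gapdh at 1.29-fold [0.911 to 1.84], where 14.4% of ranked genes were called. The class holds clusters 2, 9 and 18, which differed: Pgk1 was 2.18-fold [1.54 to 3.15] in cluster 2, 1.202-fold [0.998 to 1.45] in cluster 9 and 0.736 [0.119 to 3.45] in cluster 18. Gapdh was 2.46-fold [1.19 to 5.71], 0.992 [0.648 to 1.54] and 1.96-fold [0.332 to 13.4], and Pgam1 was 2.53-fold [1.17 to 6.23], 1.33-fold [0.951 to 1.87] and, on 1 and 3 UMIs, 4.42-fold [0.355 to 232]. Among pro-B-or-pre-B-like cells 5 of 8 ranked members were higher, where 24.3% were: Ldha (1.48-fold [1.30 to 1.68]), Pgk1, Pkm, Eno1 and Aldoa. Its clusters 7, 14 and 21 held 510, 152 and 57 control and 115, 60 and 29 MCAO cells. Ldha was 1.46-fold [0.992 to 2.11], 1.28-fold [1.10 to 1.48] and 1.26-fold [0.883 to 1.79] in them. Eno1 was 0.945 [0.587 to 1.47] in cluster 7, and Aldoa (0.886 [0.627 to 1.24]) and Pgk1 (0.868 [0.370 to 1.94]) were below 1 in cluster 21. That class held 719 control and 204 MCAO cells, and the 10 cell division genes summed there to 60.9 (control) and 72.8 (MCAO), with 9 of them higher. Their part was not tested. In B-cell-like cells 3 of 8 ranked members were lower, where 22.1% were: Pfkl at 0.543 [0.342 to 0.845], Hk2 at 0.569 [0.355 to 0.897] and Ldha at 0.808 [0.672 to 0.969]. Of the 2 clusters in that class, Ldha was 0.705 [0.550 to 0.902] in cluster 3 and 1.03-fold [0.778 to 1.36] in cluster 10.

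Across 14 classes each member had its own order of levels. Slc2a3 was highest in mature-neutrophil-like cells, then immature-neutrophil-like and macrophage-like cells (2.845 and 3.25). The macrophage-like class held the neutrophil granule genes at 115% and 162% of their library-wide level. The part of neutrophil RNA in its Slc2a3 level was not tested. Basophil-or-mast-like cells followed at 1.999 and 2.50, where the granule genes were at 9.53% and 10.0% of theirs. Monocyte-like cells had the lowest mean of both libraries, at 0.3595 and 0.409. From plasmacytoid-dendritic-like cells down, neighbours in the order overlapped in both libraries.

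Hk2 was highest in basophil-or-mast-like cells, at 1.80 (control) and 3.41 (MCAO), 1.89-fold [1.35 to 2.665]. This rests on 56 and 50 cells, and the control interval of the level overlapped that of monocyte-like cells. Monocyte-like cells came next at 1.47 and 1.33, and T-cell-like (0.103 and 0.2005) and NK-cell-like cells (0.117 and 0.106) were lowest. Pkm was highest in mature-neutrophil-like and lowest in erythroid-like cells, at 1.16 and 1.55. Ldha had a flatter order, with NK-cell-like cells at 4.74 and 5.34 at the top and B-cell-like cells at 1.86 and 1.51 at the bottom. The NK-cell-like values rest on 35 and 41 cells, and their intervals overlapped those of progenitor-like cells (4.40 and 5.27) in both libraries. Pfkl ran the other way from Slc2a3, with progenitor-like cells at the top (0.5925 and 0.591) and mature-neutrophil-like cells at the bottom by the mean of both libraries. In the MCAO library alone, immature-neutrophil-like (0.123) and macrophage-like cells (0.131) were below mature-neutrophil-like cells (0.149). The summed level was 11.4 and 11.7 in erythroid-like cells, the lowest mean of both libraries. It was highest in mature-neutrophil-like cells, at 36.09 [35.55 to 36.65] and 41.69. Immature-neutrophil-like cells were level with them in the control library, at 36.06 [35.4 to 36.72], and lower in the MCAO library, at 38.17.

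**Figure D3:**
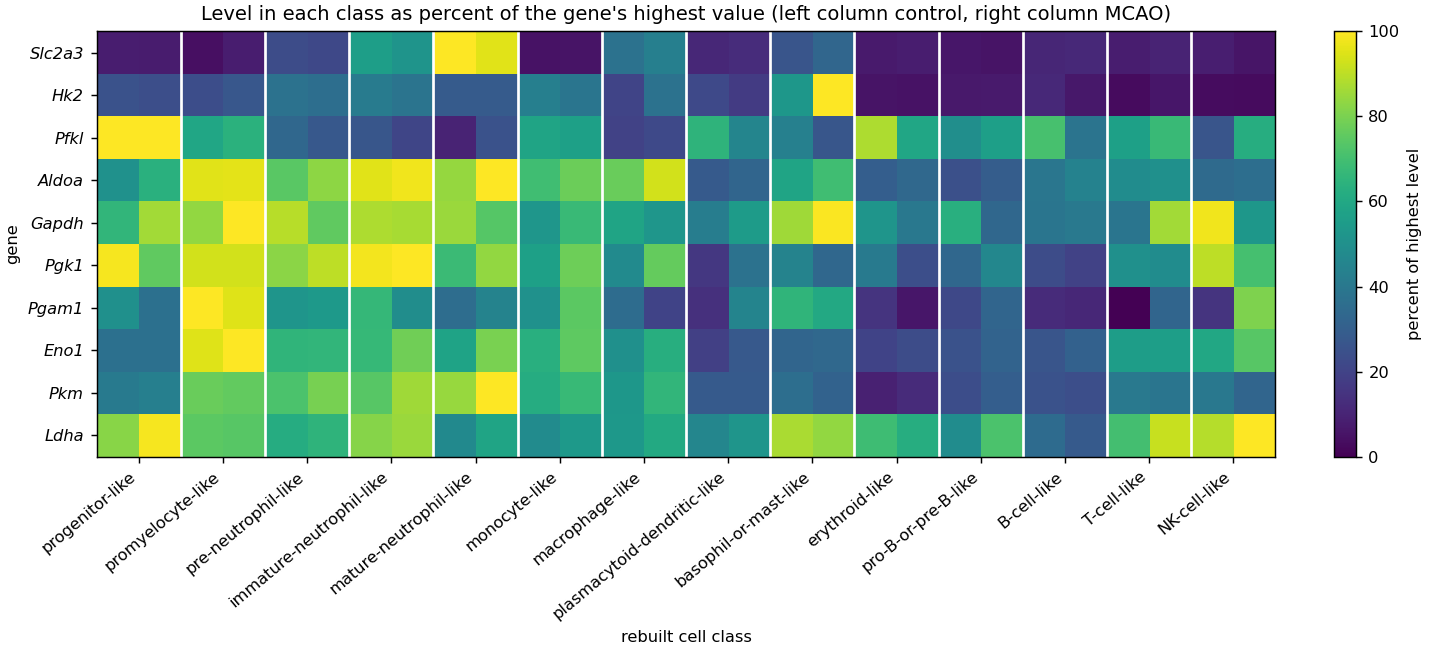
Level of each gene in 14 rebuilt cell classes as percent of the gene's highest value, with the control library in the left and the MCAO library in the right column of each class. Slc2a3 is brightest in mature-neutrophil-like cells and Hk2 in basophil-or-mast-like cells of the MCAO library, while Pfkl is darkest in mature-neutrophil-like cells of the control library.

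The isozymes of each step add context to the members. UMIs are tagged at the mRNA's 3′ end and were not divided by length, so shares compare counted molecules. Slc2a3 gave 85.6% and 85.0% of the UMIs of the 3 counted transporter genes in mature-neutrophil-like cells. The basal transporter Slc2a1 and the lysosome-associated Slc2a6 were also at least 2-fold higher there than in promyelocyte-like cells, Slc2a1 at 4.32-fold [2.29 to 9.19] and 5.69-fold [3.79 to 8.885]. Slc2a6 was 16.3-fold [9.94 to 28.8] among MCAO cells and 38.95-fold [13.2 to 190] among control cells, where it rests on 3 promyelocyte-like UMIs. Among hexokinases, Hk2 took 36.6% and 33.3% in mature-neutrophil-like cells, Hk3 41.3% and 41.7% and Hk1 22.1% and 25.03%. In erythroid-like cells Hk1 took 92.1% and 91.3%.

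Among phosphofructokinases the share of Pfkl in mature-neutrophil-like cells was 21.3% [14.5 to 29.4] (control) and 40.4% [33.5 to 47.6] (MCAO), and the platelet-type Pfkp held 69.3% and 55.05%. The muscle-type Pfkm held 66.0% and 68.2% in erythroid-like cells. Ldhb, the other lactate dehydrogenase subunit, was 9.06% and 12.96% of the pair in promyelocyte-like and 0.935% and 0.595% in mature-neutrophil-like cells. Pklr, the red cell and liver pyruvate kinase, was 20.1% [16.1 to 24.6] and 10.8% [8.55 to 13.4] of its pair in erythroid-like cells. The enolases Eno1b, Eno2 and Eno3 and the mutase Pgam2 had at most 18 UMIs per library in mature-neutrophil-like cells, and Aldoc had 2 and 16.

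Of 17 genes of other transporters, enzymes and isozymes, 16 are in the table, 7 were ranked in mature-neutrophil-like cells and 3 were at least 1.2-fold higher in MCAO, beside 17.1% of all ranked genes. They were Slc2a1 at 1.34-fold [1.095 to 1.65], Hk1 at 1.255-fold [1.07 to 1.47] and Gpi1, the isomerase between hexokinase and phosphofructokinase, at 1.24-fold [1.19 to 1.305]. Tpi1, the triose phosphate isomerase, was 1.13-fold [0.935 to 1.38]. It was 6.98-fold lower [5.84 to 8.365] and 5.94-fold lower [5.16 to 6.86] in mature-neutrophil-like than in promyelocyte-like cells. Hk3 at 1.12-fold [0.994 to 1.26] and Pfkp at 1.06-fold [0.792 to 1.42] had intervals that include 1. Ldhb, Pfkm and Bpgm had 9 to 19 UMIs per library in that class.

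Slc16a3, the lactate exporter MCT4, was 4.99-fold [3.73 to 6.82] and 5.48-fold [4.49 to 6.75] higher in mature-neutrophil-like than in promyelocyte-like cells. Slc16a1, its counterpart MCT1, was 8.36-fold lower [5.99 to 11.8] and 7.84-fold lower [5.81 to 10.8]. Slc16a3 thus held 28.7% and 30.3% of the pair's UMIs in promyelocyte-like and 94.4% and 94.9% in mature-neutrophil-like cells. Of 13 ranked genes of lactate export, pyruvate entry and phosphofructokinase control, 2 were at least 2-fold higher in both libraries and 7 lower, counts close to the shares of all ranked genes (12.4% and 47.2%). The second that was higher is Pfkfb4, a gene of phosphofructokinase control, at 3.49-fold [2.48 to 5.045] and 3.91-fold [3.11 to 4.97]. The lower ones include Dlat and Pdhb of the pyruvate dehydrogenase complex. Among the Pfkfb genes, Pfkfb4 held 23.4% and 21.7% of the UMIs in promyelocyte-like and 63.5% and 68.1% in mature-neutrophil-like cells. Pfkfb3, named after its values were seen, held 72.7% and 73.9% in promyelocyte-like and 35.3% and 30.8% in mature-neutrophil-like cells. In MCAO over control, 2 of 10 ranked genes of that list were higher (Bsg, the chaperone of the lactate exporters, at 1.32-fold [1.13 to 1.54], and Dlat) and Pdhb was lower at 0.759 [0.576 to 0.998], counts close to the 17.1% and 20.3% of all ranked genes.

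**Figure D4:**
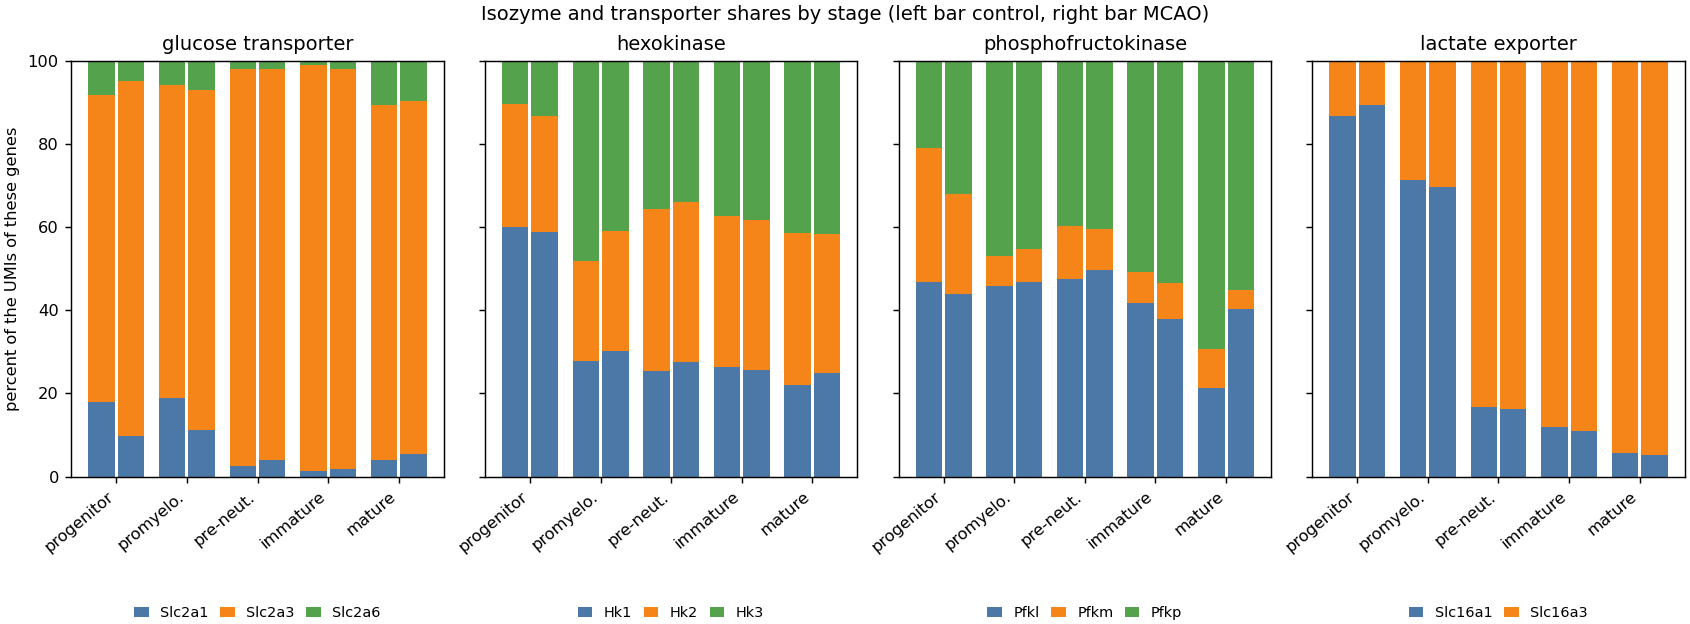
Share of each gene (percent of the UMIs of the genes shown) for 4 steps across 5 granulocyte stages, with the control library in the left and the MCAO library in the right bar. Slc16a3 goes from 28.7% and 30.3% of the lactate exporter pair in promyelocyte-like to 94.4% and 94.9% in mature-neutrophil-like cells, and Pfkl holds 21.3% and 40.4% of the phosphofructokinase UMIs in mature-neutrophil-like cells.

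The oxidative branch of the pentose phosphate pathway supplies NADPH for the oxidative burst. Of 7 genes over the whole pathway, 4 were at least 1.2-fold higher in MCAO mature-neutrophil-like cells and 0 lower. The shares of all ranked genes were 17.1% and 20.3%, and the median log2 ratio of the 7 was 0.33. Over the stages 1 of the 7 was at least 2-fold higher in both libraries (Taldo1) and 3 lower (Pgls, Rpia and Rpe). These counts are close to the shares of all ranked genes, 12.4% and 47.2%. Pgd, the phosphogluconate dehydrogenase, was 9.11 and 12.0, 1.31-fold [1.26 to 1.37], and lay between 1.21- and 1.41-fold in the 4 clusters. G6pdx, the entry enzyme, was 1.255-fold [1.18 to 1.33], Rpia 1.38-fold [1.15 to 1.66] and Rpe 1.39-fold [1.005 to 1.94]. Among the glycogen genes, the phosphoglucomutase gene Pgm2 was lower in MCAO at 0.750 [0.486 to 1.15], an interval that includes 1. Pygl, the liver-type glycogen phosphorylase, was 3.50-fold [3.20 to 3.83] and 3.25-fold [3.09 to 3.43] higher in mature-neutrophil-like than in promyelocyte-like cells, and Ppp1r3d, a glycogen-targeting phosphatase subunit, 13.4-fold [6.72 to 31.2] and 10.1-fold [7.10 to 14.98]. The 1 ranked gluconeogenesis gene, Pck2, was lower in MCAO at 0.521 [0.376 to 0.718].

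Of 12 ranked hypoxia-inducible genes outside glycolysis, 1 was at least 1.2-fold higher and 3 lower in MCAO mature-neutrophil-like cells, beside 17.1% and 20.3% of all ranked genes, with a median log2 ratio of 0.05. Egln3, an oxygen-sensing hydroxylase, was 0.457 and 0.707, 1.55-fold [1.30 to 1.84]. Vegfa, the vascular growth factor, was 0.333 and 0.207, a ratio of 0.620 [0.481 to 0.797]. Ndrg1 was 0.792 [0.658 to 0.953] and Kdm3a 0.807 [0.634 to 1.03]. Hif1a, which encodes the factor's oxygen-regulated subunit, was 0.978 [0.835 to 1.15].

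The Gapdh row needs care, because the gene has many near-identical copies. It held 846 UMIs over both libraries, 0.136 and 0.1395 per 10000. In its annotated transcript 82.5% of all 50-base stretches, and 90.5% of those in the last 500 bases, also occur in other annotated genes. A search at 95% identity over at least 200 bases found 74 other genes, 71 of them pseudogenes. Of the 74, 70 are rows of the table, with 5655 UMIs. In mature-neutrophil-like cells the Gapdh row stood at 0.170 and 0.147, and 68 pseudogene rows summed to 1.02 [0.9285 to 1.115] and 1.10 [1.01 to 1.19]. The summed rows were highest in promyelocyte-like cells, at 1.54 and 1.503 with Gapdh included, and lowest in B-cell-like cells, at 0.374 and 0.426. Gapdh values are therefore uncertain, and the part of shared sequence in the row's low level was not tested. Eno1 shares 75.2% of the stretches in its last 500 bases with other genes. The 2 table rows among its copies held 271 UMIs against its own 22075. How reads that match several genes were handled is not given, and the part of shared sequence in the Eno1 values was not tested. Slc2a3 and Hk2 shared 0% of their stretches.

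**Figure D5:**
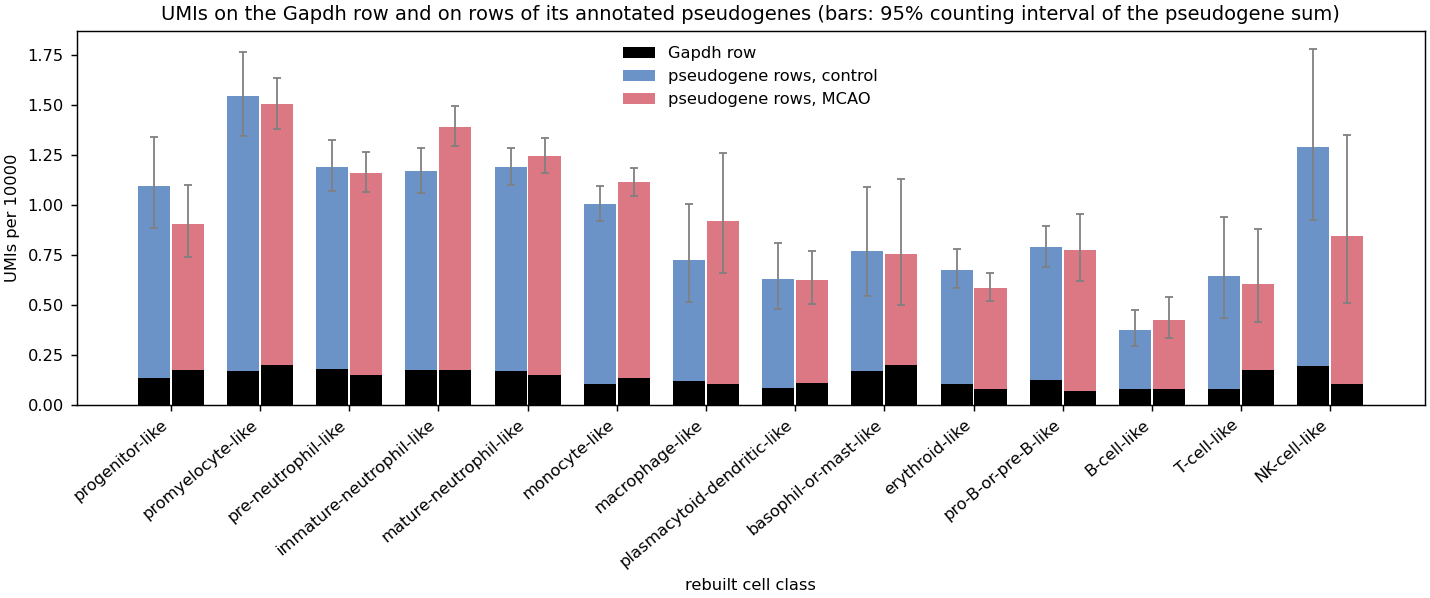
UMIs per 10000 on the Gapdh row (black) and on 68 rows of its annotated pseudogenes (coloured, stacked on top) in 14 rebuilt cell classes of the control (blue) and MCAO (red) libraries, with 95% counting intervals of the pseudogene sum. In mature-neutrophil-like cells the Gapdh row is 0.170 and 0.147 and the pseudogene rows 1.02 and 1.10.

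Likeness of pattern was measured by Pearson correlation of log2 levels (pseudocount 0.02) over 16 points, which are the 8 classes with at least 100 cells per library in 2 libraries. The points share libraries and depth, so the values are descriptions. Of 8514 genes outside the lists with at least 500 UMIs, leaving out predicted, antigen receptor and haemoglobin genes, those most like the summed level were Vsir (r = 0.987), Hp (0.987) and Fgd4 (0.985). For Slc2a3 they were C5ar1 (0.969), the receptor of complement C5a, Cd33 (0.969) and Foxd4 (0.967). For Hk2 they were Sort1 (0.980), Lpcat4 and Rnf130, for Pkm Kif1b (0.978), Cotl1 and Ostf1, for Aldoa Hp (0.978), Pi16 and Mocos, and for Eno1 Plekhg1 (0.972), Hp and Ssc4d. Pfkl was most like Gtf2f2 (0.940), Suclg1 and Gps1, Pgk1 like Galc (0.936), Sem1 and Amotl2, and Pgam1 like Arpc4 (0.934), Rnpep and Kctd20. Genes with a pattern like that of Gapdh included Coa4 (0.917) and Dock5 (0.906). Ldha had the weakest partners, Tfdp1 (0.812), Mospd1 and Mdh2. Between members the highest correlation was that of Aldoa with Eno1 (0.954) and the lowest that of Slc2a3 with Pfkl (-0.87).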

How the data were processed

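Natural log values for 25943 genes in 10610 cells of both libraries were deposited by the authors in a single table. Per the submitters' processing notes, the tools were STAR, fastp, Seurat 4.0.6 and UMI-tools, on build mm10. Their settings, the annotation and any filter on cells are not given in the sources used here. Linear values summed to 10000 in every cell, so each value is the natural log of 1 plus UMIs per 10000. Whole UMIs were recovered for 100% of 19373615 nonzero values, to within 0.01 UMIs. Column names gave each cell's library, which are running numbers after the library's name, so 5120 names occur in both and are not shared barcodes. No genes named as mitochondrially encoded are in the table.

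Cells were clustered with scanpy 1.11.5 and leidenalg 0.10.2 on 2000 variable genes, leaving out the members and 6 further pathway lists, with 30 principal components, 20 neighbours and resolution 1, which gave 25 clusters. Names came from 20 marker sets by a scoring rule set after the data were seen. They may differ from the study's, and cluster 24 (34 control and 25 MCAO cells), led by Jchain, stayed unnamed. Clusters 1, 10, 18, 19 and 23 were named by marker score rather than by leading genes. Doublets were scored against simulated ones. This marked 0.979% and 1.67% of cells, which were kept. No cell was removed.

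Levels have exact Poisson intervals, ratios exact conditional binomial intervals and shares Clopper-Pearson intervals, all at 95% (scipy 1.17.1). A fold against 0 UMIs uses a floor of 3 UMIs for calls. Log2 ratios use a pseudocount of 0.02. Calls are at least 1.2-fold between libraries and at least 2-fold between stages. The interval code was tested on simulated data. Copies were searched with BLAST 2.17.0 and GENCODE transcripts of GRCm38. All 10 members are named. Of the other lists, each isozyme of a member's step and up to 4 further genes are named, and the 3 most alike genes per member, except that some genes are not reported here. The members and lists were chosen with earlier results of these data known.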

Additional observations from a re-analysis of the deposited data

Results flagged for a closer look

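Some members had opposite ratios of MCAO to control in different classes, each with an interval that excluded 1. None of these differences between classes was tested, since each condition has 1 library. Pfkl was 2.53-fold in mature-neutrophil-like cells but 0.676 in erythroid-like and 0.543 in B-cell-like cells. Pgk1 was 1.23-fold in mature-neutrophil-like, 1.37-fold in monocyte-like and 2.35-fold in plasmacytoid-dendritic-like cells (on 11 and 37 UMIs) but 0.588 in erythroid-like cells. Ldha was 1.23-fold in mature-neutrophil-like and 1.48-fold among pro-B-or-pre-B-like cells but 0.808 in B-cell-like cells. Cd209a, a marker of conventional dendritic cells, was a leading gene of the plasmacytoid-dendritic-like class. At resolution 2 a conventional-dendritic-like cluster held 37 control and 68 MCAO cells, beside 116 and 117 plasmacytoid-dendritic-like cells. The erythroid-like class pools clusters 11, 19 and 23, and its haemoglobin genes summed to 389 and 580.6. The part of such mixtures in the ratios was not tested.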

How the results depend on the processing

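No paired analysis was possible because each condition has 1 library, and for the same reason no replicate could be left out. Of 519 ratios of MCAO to control recomputed under other settings, for each member in the 5 granulocyte stages, 449 stayed within the main value's counting interval, 60 moved by more and 10 reversed a ratio that had passed 1.2-fold. Counts of members are given apart. In mature-neutrophil-like cells the count of members at least 1.2-fold higher went from 5 to 3 in cells with at least 2000 UMIs (Pfkl, Pgam1 and Eno1), to 2 in cluster 4 alone, to 8 in cluster 6 alone and to 1 (Pfkl) at a 1.5-fold threshold. The count of those lower went from 0 to 1 (Gapdh) in cells with at least 2000 UMIs, in cells with 2000 to 4000 UMIs, in cluster 4 alone and without clusters in which over 80% of cells came from 1 library. It went to 2 (Gapdh and Pgam1) in cluster 8 alone. The stage count of those higher went from 1 to 4 in cells with 2000 to 4000 UMIs, where 1 control and 9 MCAO promyelocyte-like cells remain. The count of those lower went from 2 to 0 there and in cells thinned to 1000 UMIs, where promyelocyte-like cells held 2 and 5 Pfkl and 1 and 2 Pgam1 UMIs. The cause of the other changes was not tested. Apart from those in single clusters, the changed counts have no share of all ranked genes beside them. Reversed ratios in mature-neutrophil-like cells were Pgk1 at 0.980, Pgam1 at 0.821 and Ldha at 0.941 in cluster 8 alone and Pgam1 at 0.872 in cluster 1 alone. Elsewhere they were Pfkl at 1.46 in thinned pre-neutrophil-like cells and, in immature-neutrophil-like cells, at 1.02 (resolution 2) and 1.23 (2000 to 4000 UMIs). In progenitor-like cells they were Aldoa at 0.802 (2000 to 4000 UMIs), Gapdh at 0.979 (resolution 0.5) and Pgk1 at 1.28 (thinned). Single clusters and the 80% limit were chosen after seeing the data; a planned limit of 90% left out no cluster.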
